A study of Mus musculus with 6 samples.

Results

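The glutathione S-transferases (GSTs) of the alpha, mu and theta classes were followed in the livers of mice without Asgr1, the gene of the major subunit of the hepatic asialoglycoprotein receptor. Members were the lines of the deposited expression table that carry 1 of 10 gene symbols, which gave 10 of the 55401 genes listed. They comprise 4 alpha genes (Gsta1, Gsta2, Gsta3 and Gsta4), 5 mu genes (Gstm1, Gstm2, Gstm3, Gstm4 and Gstm6) and 1 theta gene (Gstt3). GSTs are mostly cytosolic enzymes that join the thiol of glutathione to reactive electrophiles, among them drug metabolites, carcinogens and products of lipid peroxidation. The conjugates leave the hepatocyte through transporters of the ABCC family and end as mercapturates. The hepatocyte is rich in these enzymes, and the genes of several classes are known to respond to xenobiotics through NRF2 and through the nuclear receptors CAR and PXR.

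RNA-Seq measured liver mRNA in 3 Asgr1-/- and 3 WT mice, with 1 library per mouse. All were males on the C57/BL6 background, aged 13 weeks and fasted overnight. The Asgr1-/- line carries a whole-body deletion made by CRISPR/Cas9 in zygotes with a pair of guides. Its founders were crossed to C57BL/6, and Asgr1-/- and WT littermates came from heterozygous parents. The receptor is therefore missing in all tissues and throughout life, not in hepatocytes of the adult alone. The question was which transcripts of the liver differ when the receptor is missing.

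Total counts ranged from 19842637 to 22080809 in Asgr1-/- livers and from 20134006 to 21178121 in WT livers. Asgr1 itself had 62, 40 and 36 counts in Asgr1-/- livers 1, 2 and 3, against 15894, 15463 and 11716 counts in WT livers 1, 2 and 3, as the labels say. The summed level of 7 hepatocyte markers (among them Alb and Ttr) was 40129.5 to 41469.7 FPKM in Asgr1-/- livers and 42398.4 to 47385.8 FPKM in WT livers, none of them at 0, as the labelled tissue would show. FPKM divides a count by the exonic length of the gene and by the library total, so it is the scale on which levels of different genes are compared here. Counts of liver tissue cannot tell fewer cells of a type from less RNA per cell.

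The members lie in clusters of similar genes, which bears on how reads are shared among them. In GRCm38, the build of the files, the mu genes all lie on the minus strand of chromosome 3, in the order Gstm6 (chr3:107938847-107943749), Gstm3 (chr3:107963696-107969283), Gstm2 (chr3:107981702-107986453), Gstm1 (chr3:108012255-108017973) and Gstm4 (chr3:108040408-108044894). On chromosome 9 lie Gsta4 (chr9:78182774-78209349, plus strand), Gsta1 (chr9:78230656-78242684, plus strand) and Gsta2 (chr9:78331018-78355788, minus strand). Gsta3 stands apart at chr1:21240589-21265661 on the plus strand, and Gstt3 lies at chr10:75774115-75781414 on the minus strand. The positions span whole genes, exons and introns together, and equal those of GENCODE M21 for all 10 members. Gstt3 overlaps Gm20441, a protein-coding gene model on the same strand, and Gsta3 overlaps the antisense gene Gm28836. Whether the counting used strand is not given in the sources used here, so reads of Gsta3 and Gm28836 may not have been separated.

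The 2 members that passed the test below, Gsta1 and Gstm3, are set beside their nearest relatives to show how alike the transcripts are. The first 90 coding bases are given 5′ to 3′ from the GENCODE M21 transcripts, in lower case, with capitals where a gene differs from the first of its set. Gm3776, the gene closest to Gsta1 in sequence, differs from Gsta1 at 1 of these bases and Gsta2 at 0.
Gsta1: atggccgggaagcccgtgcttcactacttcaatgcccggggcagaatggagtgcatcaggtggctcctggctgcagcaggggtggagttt
Gm3776: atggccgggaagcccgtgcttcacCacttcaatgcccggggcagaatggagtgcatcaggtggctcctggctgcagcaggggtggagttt
Gsta2: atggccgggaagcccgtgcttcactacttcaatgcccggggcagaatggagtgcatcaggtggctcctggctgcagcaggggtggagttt
The mu genes are less alike over the same stretch, with 16 differences between Gstm6 and Gstm3 and 11 between Gstm1 and Gstm3.
Gstm3: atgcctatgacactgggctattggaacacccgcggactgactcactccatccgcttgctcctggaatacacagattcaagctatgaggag
Gstm6: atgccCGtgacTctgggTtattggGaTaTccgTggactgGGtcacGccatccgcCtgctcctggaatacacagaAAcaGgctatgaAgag
Gstm1: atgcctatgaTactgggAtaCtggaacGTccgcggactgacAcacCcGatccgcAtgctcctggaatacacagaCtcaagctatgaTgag

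Over the aligned coding sequence, Gsta1 was identical to Gm3776 at 99.7% of bases, to Gsta2 at 97.9%, to Gsta3 at 76.1% and to Gsta4 at 68.6%. Gstm3 was identical to Gstm1 at 89.5%, to Gstm2 at 85.4%, to Gstm6 at 85.0% and to Gstm4 at 79.1%. The length of the reads is not given in the sources used here, so exact sharing was counted over windows of 50, 100 and 150 bases of each gene's transcripts. Of the windows of Gsta1, 90.5%, 80.6% and 68.4% were found in transcripts of another gene, namely Gm3776, Gsta2 or Gm10639. For Gsta2 the shares were 49.8%, 28.4% and 19.6%, and for Gstm3 they were 28.8%, 13.8% and 3.44%. Gsta4 and Gstm4 shared 0% of windows at each length. The counts of Gsta1 and Gsta2 are therefore uncertain as a division between near-identical genes, and no such sharing was found for Gsta4 and Gstm4.

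The family split into members with higher levels in Asgr1-/- livers and members that overlapped between the genotypes. Gsta1, Gsta4, Gstm1, Gstm3 and Gstm4 had levels in all 3 Asgr1-/- livers above those in all 3 WT livers, with fitted differences between 0.77 and 2.26 on the log2 scale. Gsta2, Gsta3, Gstm2, Gstm6 and Gstt3 overlapped, with log2 differences between -0.15 and 0.25. So 5 of 10 members were without overlap and higher in Asgr1-/- and 0 were lower, beside 10.9% of the 10167 genes tested in the higher direction and 10.9% in the lower. Each class held both kinds except theta, which has 1 member here. The members were chosen with earlier results of these data known, so the contrast with all genes is a description only.

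All 10 members reached the minimum for testing, a mean of 1 FPKM across the livers of both genotypes, although Gsta1 did so only through the Asgr1-/- livers. Counts were tested with edgeR's quasi-likelihood method, with p values adjusted over the whole set of genes, and calls required a fold change above 1.5 as well as an adjusted p under 0.05. Gsta1 and Gstm3 were called higher, beside 14 of all genes (0.138%), and 0 members were called lower, beside 16 of all genes (0.157%). At an unadjusted p under 0.05, 0 members were lower, beside 834 of the 10167 genes tested. DESeq2 and limma on log2(FPKM + 0.1) also called 0 members lower. Of the 10167 genes, DESeq2 called 248 in either direction, 93 of them higher, and limma called 11, 5 of them higher. At an unadjusted p under 0.05, 5 members were higher, beside 7.29% of all genes, and they were the 5 without overlap. The median log2 fold change was 0.51 over the members, with 8 above 0, and -0.02 over all genes tested. It was 0.03 over the 4 other alpha, mu and theta genes tested. Since the members were chosen with earlier results known, these contrasts are no test of the family.

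How many members passed depended on the test and the livers used. Gsta4, Gstm1 and Gstm4 joined Gsta1 and Gstm3 with DESeq2, which called 0.915% of all genes higher. The same 5 members were called with no filter on expression, where 0.78% of all genes were called higher, and with the minimum set to a mean of 0.1 FPKM, where 0.206% were. They were also called without WT liver 3, a fit that called 1.57% of all genes higher, and without WT liver 1, which called 0.246%. Without Asgr1-/- liver 1, Asgr1-/- liver 2, Asgr1-/- liver 3 or WT liver 2, each left out in turn, edgeR called 0 members, beside 0.00984%, 0.0197%, 0.00984% and 0.0393% of all genes called higher in the same order. At an unadjusted p under 0.05, 5 members were higher in each of the fits that left out an Asgr1-/- liver and 6 in the fit without WT liver 2, beside 5.34%, 5.86%, 4.71% and 5.62% of all genes. With limma, Gsta1 alone was called, beside 0.0492% of all genes on log2(FPKM + 0.1) and 0.0787% on log2(FPKM + 1). With the replicate number added to edgeR's fit as a block, 0 members were called, beside 7 of all genes called higher. The edgeR adjusted p was then 0.0685 for Gsta1 and 0.0528 for Gstm3.

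**Figure D1:**
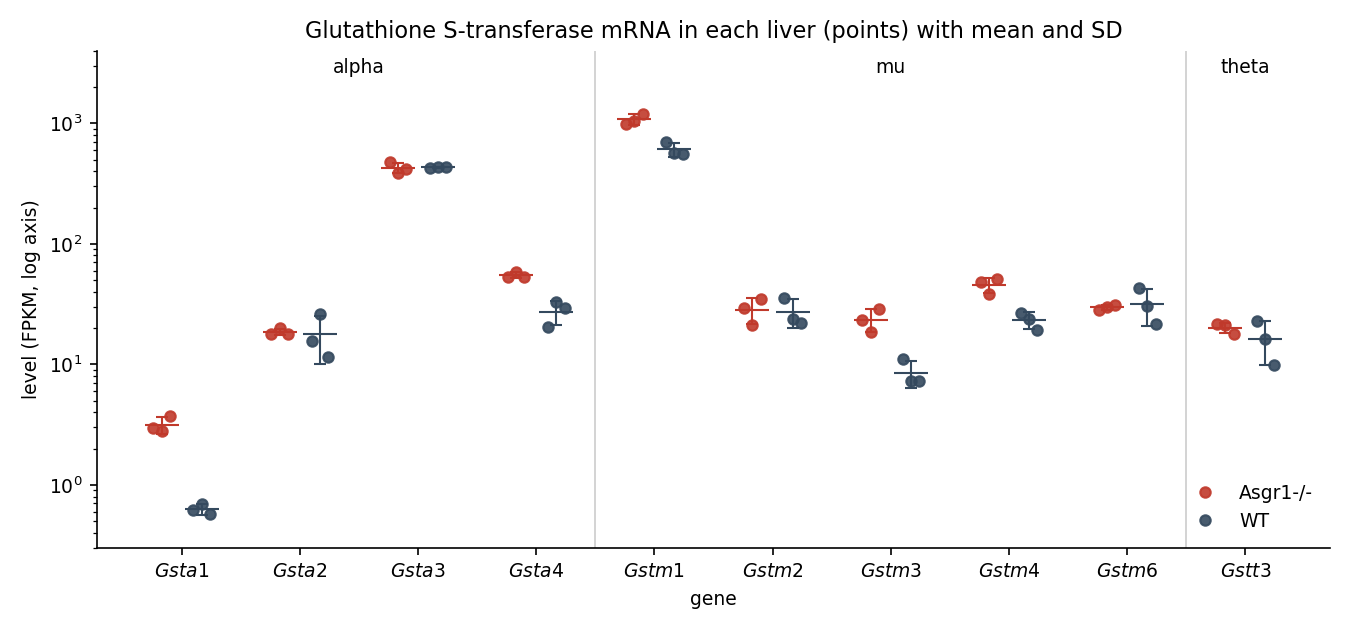
Level of the 10 members in each liver (points, FPKM on a log axis) by GST class, with the mean (wide dash) and SD (error bar) of the 3 Asgr1-/- livers (red, left) and the 3 WT livers (grey, right). The red and grey points are apart for Gsta1, Gsta4, Gstm1, Gstm3 and Gstm4 and intermingle for the other 5 genes.

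**Figure D2:**
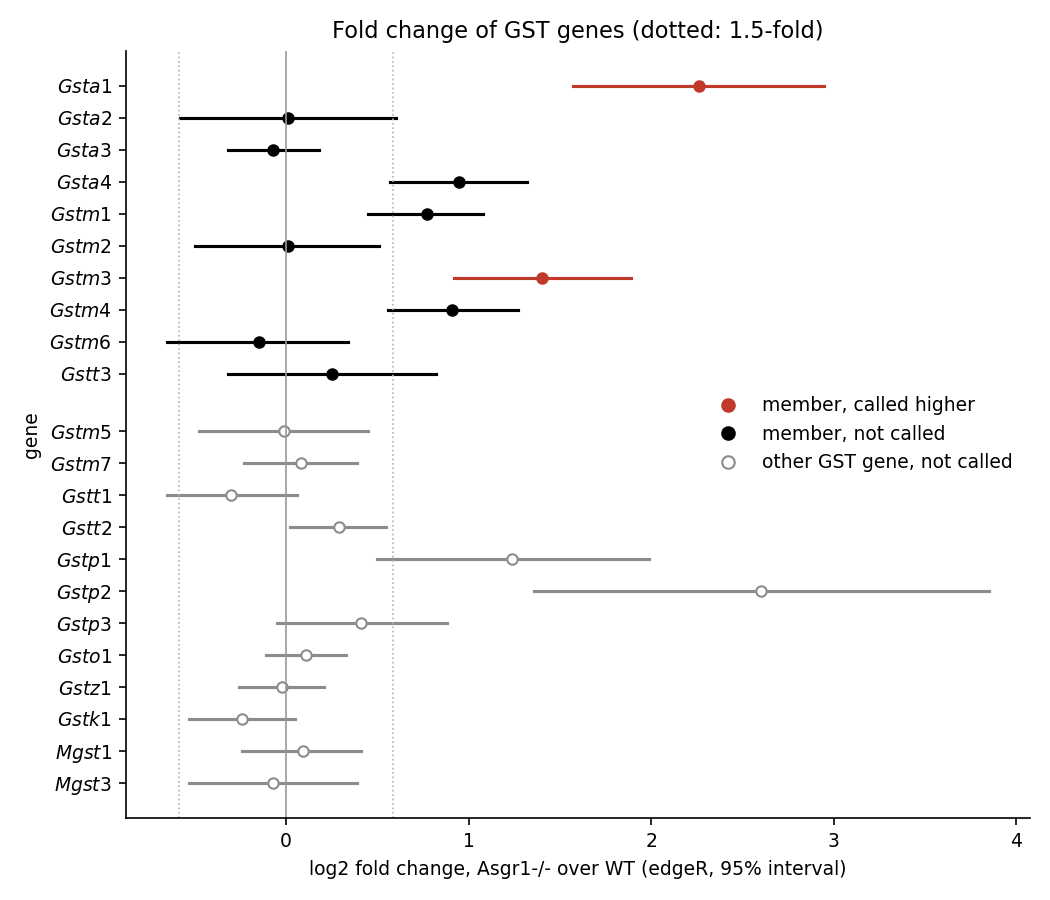
Log2 fold change of Asgr1-/- over WT livers (points) with the 95% interval of edgeR's fit (lines) for the 10 members and for 12 other GST genes tested. Gsta1 at 2.26 and Gstm3 at 1.40 are the called members, and the intervals of Gsta4, Gstm1 and Gstm4 lie above 0 without a call.

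Gsta1, an alpha enzyme known in mice for its induction by antioxidants, had the largest log2 difference of the 10 members, at a low level. It had 62, 53 and 72 counts in Asgr1-/- livers 1, 2 and 3, against 12, 14 and 11 counts in WT livers 1, 2 and 3. In CPM, counts scaled to the TMM-corrected library size, it averaged 2.96 ± 0.493 in Asgr1-/- livers and 0.613 ± 0.0658 in WT livers (SD, n = 3 each). The groups did not overlap, and the log2 fold change was 2.26 (standard error 0.31, 95% interval 1.57 to 2.95, edgeR quasi-likelihood adjusted p = 0.0245). That is 4.78-fold with an interval of 2.96 to 7.71, and 5 of the tested genes had a larger positive log2 fold change.

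The call of Gsta1 was lost in edgeR's fit without Asgr1-/- liver 1 (adjusted p = 0.127), liver 2 (adjusted p = 0.0611) or liver 3 (adjusted p = 0.134), and its adjusted p was 0.0937 without WT liver 2. The log2 fold change was 2.12 to 2.35 over the 6 fits that left out a liver. Over all 14 alternatives its adjusted p ranged from 1.9e-05 to 0.134, and Gsta1 was called in 9 of them.

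Gsta2, whose coding sequence is nearly that of Gsta1, did not pass the test and overlapped between the genotypes. It had 17.9, 19.9 and 17.9 FPKM in Asgr1-/- livers 1, 2 and 3, against 15.5, 26.2 and 11.5 FPKM in WT livers 1, 2 and 3. The Asgr1-/- livers fell within the range of the WT livers, and the log2 fold change was 0.01 (95% interval -0.58 to 0.60, edgeR adjusted p = 0.992). The interval spans fold changes from 0.669 to 1.51, so a difference of that size may go unseen with these livers.

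Because reads of the close alpha genes can be exchanged, their counts were also summed. Of the counts given to Gsta1, Gsta2 and Gm3776, the share of Gsta1 was 11.6%, 10.2% and 14.1% in Asgr1-/- livers 1, 2 and 3, against 3.11%, 2.09% and 3.85% in WT livers 1, 2 and 3. The Wilson 95% intervals, which cover counting error only, reached down to 7.91% in Asgr1-/- livers and up to 6.75% in WT livers. The summed level of the 3 genes was 23.5, 25.7 and 25.1 CPM in Asgr1-/- livers 1, 2 and 3, against 19.6, 32.6 and 14.3 CPM in WT livers 1, 2 and 3. The sum overlapped between the genotypes, with a ratio of means of 1.12. It is mostly Gsta2, whose spread among WT livers (SD 9.34 CPM) exceeds the whole level of Gsta1, so the sum does not bear on whether Gsta1 itself differed. Gm3776 itself had 7, 1 and 12 counts in Asgr1-/- livers and 6, 5 and 3 counts in WT livers.

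**Figure D3:**
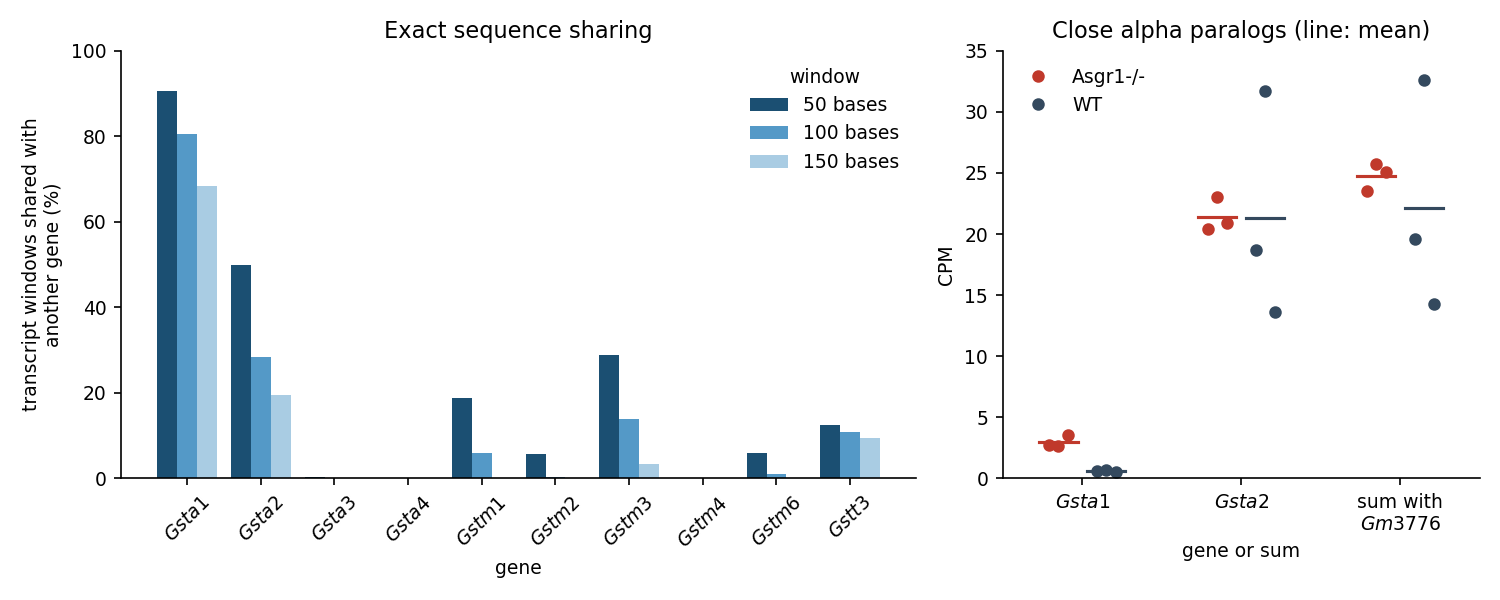
Left, percentage of windows of 50, 100 and 150 bases in each member's transcripts that also occur in transcripts of another gene. Right, CPM of Gsta1, of Gsta2 and of both summed with Gm3776 in the Asgr1-/- livers (red, left) and the WT livers (grey, right), with lines at the means, where the points of Gsta1 are apart and those of Gsta2 and of the sum, at means of 24.7 CPM in Asgr1-/- livers and 22.2 CPM in WT livers, overlap.

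Gsta3, known in mice for conjugating the epoxide of aflatoxin B1, was the main alpha transcript in both genotypes. It had 475.7, 390.6 and 419.9 FPKM in Asgr1-/- livers 1, 2 and 3, against 428.5, 433.3 and 437.8 FPKM in WT livers 1, 2 and 3. The WT livers lay inside the range of the Asgr1-/- livers and were close to each other, as the coefficient of variation in CPM was 9.13% in Asgr1-/- livers and 0.903% in WT livers. The log2 fold change was -0.07 with a 95% interval of -0.32 to 0.18 (edgeR adjusted p = 0.804), so a fold change outside 0.798 to 1.14 lies beyond the interval.

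Gsta4, which conjugates 4-hydroxynonenal and other aldehydes formed by lipid peroxidation, was higher in each Asgr1-/- liver than in any WT liver. It had 52.9, 58.8 and 53.3 FPKM in Asgr1-/- livers 1, 2 and 3, against 20.4, 32.8 and 29.1 FPKM in WT livers 1, 2 and 3. The lowest Asgr1-/- liver stood 51.5% above the highest WT liver in CPM. The log2 fold change of 0.95 (standard error 0.17, 95% interval 0.57 to 1.32) missed the threshold with an adjusted p of 0.0543 from edgeR. Its adjusted p over the 14 alternatives ran between 2.5e-07 and 0.202, with a call in 5 of them.

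Among the mu genes, Gstm1 was the most abundant member in both genotypes, as the main mu enzyme of mouse liver. It had 992.4, 1043.3 and 1196.0 FPKM in Asgr1-/- livers 1, 2 and 3, against 704.8, 570.3 and 554.3 FPKM in WT livers 1, 2 and 3. The lowest Asgr1-/- liver exceeded the highest WT liver by 33.2% in CPM. For Gstm1 the log2 fold change was 0.77 (standard error 0.14, 95% interval 0.45 to 1.08), or 1.70-fold, with an edgeR adjusted p of 0.057 that missed the threshold. In the alternatives its adjusted p lay between 2.3e-05 and 0.207, and Gstm1 was called in 5 of 14.

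Gstm3, a mu enzyme of lower abundance, was the called member of this class. It had 23.4, 18.4 and 28.6 FPKM in Asgr1-/- livers 1, 2 and 3, against 11.0, 7.31 and 7.31 FPKM in WT livers 1, 2 and 3. All Asgr1-/- livers were above all WT livers, the lowest by 61.4% over the highest WT liver in CPM. This gave a log2 fold change of 1.40 (standard error 0.21, 95% interval 0.92 to 1.89, edgeR quasi-likelihood adjusted p = 0.0431), or 2.65-fold. In all, 42 tested genes had a larger positive value.

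The call of Gstm3 was lost in edgeR's fit without Asgr1-/- liver 1 (adjusted p = 0.148), liver 2 (adjusted p = 0.0503) or liver 3 (adjusted p = 0.181), and its adjusted p was 0.152 without WT liver 2. Its log2 fold change lay between 1.24 and 1.63 over the 6 fits that left out a liver. With limma on log2(FPKM + 0.1) the adjusted p was 0.0843, and over all 14 alternatives it ranged from 1.7e-11 to 0.181, with 7 calls. The windows of Gstm3 were shared with Gm8834, Gstm2-ps1, Gstm1 and Gstm6, and at 150 bases with Gm8834 only. Gm8834 had 10, 9 and 18 counts in Asgr1-/- livers and 9, 8 and 0 counts in WT livers.

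Gstm4, the mu gene with no shared windows, had a difference close in size to that of Gstm1. It had 48.6, 38.2 and 50.6 FPKM in Asgr1-/- livers 1, 2 and 3, against 26.9, 23.9 and 19.3 FPKM in WT livers 1, 2 and 3. No liver of one genotype lay within the range of the other. The log2 fold change of 0.91 (standard error 0.16, 95% interval 0.56 to 1.27) had an adjusted p of 0.0543 from edgeR, above the threshold, and the alternatives gave 6.1e-07 to 0.221 with 5 calls of 14.

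The other mu genes, Gstm2 and Gstm6, flank Gstm3 in the cluster and overlapped between the genotypes. Gstm2 had 29.6, 21.0 and 34.8 FPKM in Asgr1-/- livers 1, 2 and 3, against 35.8, 23.8 and 22.2 FPKM in WT livers 1, 2 and 3. Its log2 fold change was 0.01 (95% interval -0.50 to 0.51, edgeR adjusted p = 0.992), and each genotype had high and low livers. Gstm6 had 28.2, 29.7 and 31.0 FPKM in Asgr1-/- livers 1, 2 and 3, against 43.1, 30.5 and 21.4 FPKM in WT livers 1, 2 and 3. All Asgr1-/- livers of Gstm6 lay between WT livers 1 and 3, with a log2 fold change of -0.15 (95% interval -0.65 to 0.34, edgeR adjusted p = 0.78).

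Gstt3 belongs to the theta class, whose active site uses a serine in place of the tyrosine of alpha and mu enzymes. It had 21.5, 21.1 and 17.8 FPKM in Asgr1-/- livers 1, 2 and 3, against 22.7, 16.2 and 9.84 FPKM in WT livers 1, 2 and 3. WT liver 1 was the highest of the 6 and WT liver 3 the lowest, so the Asgr1-/- livers fell inside the WT range. Its log2 fold change was 0.25 (95% interval -0.32 to 0.82, edgeR adjusted p = 0.675). It was 0.57 without WT liver 1 and -0.02 without WT liver 3. Part of its count may belong to Gm20441, with which it shared 10.8% of windows of 100 bases.

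Summed per class, the mu genes separated the genotypes and the alpha genes did not. The mu sum was 1122.2, 1150.7 and 1341.0 FPKM in Asgr1-/- livers 1, 2 and 3, against 821.6, 655.9 and 624.5 FPKM in WT livers 1, 2 and 3, a ratio of means of 1.72. Without Gstm1 the mu sum was 107.4 to 144.9 FPKM in Asgr1-/- livers and 70.2 to 116.8 FPKM in WT livers, which overlap. The alpha sum was 549.4, 472.0 and 494.9 FPKM in Asgr1-/- livers 1, 2 and 3, against 465.1, 493.0 and 478.9 FPKM in WT livers 1, 2 and 3, with a ratio of 1.06. Gsta3 makes up most of it, and without Gsta3 the alpha sum was 73.7 to 81.4 FPKM in Asgr1-/- livers and 36.5 to 59.7 FPKM in WT livers, with no overlap and a ratio of 1.68.

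Of the summed FPKM of the 10 members, Gstm1 made up 62.2% on average in Asgr1-/- livers and 50.9% in WT livers, and Gsta3 made up 24.8% in Asgr1-/- and 36.4% in WT livers. The exonic size was 4344 bases for Gsta3 and 1473 bases for Gstm1. In CPM, which leaves length out, Gsta3 averaged 1826.2 in Asgr1-/- and 1918.0 in WT livers. Gstm1 averaged less, 1558.1 CPM in Asgr1-/- and 915.9 CPM in WT livers. The sum of all 10 members had a ratio of means of 1.45 in FPKM and 1.21 in CPM. All 10 together took 0.36% to 0.399% of the counts of a library in Asgr1-/- livers and 0.293% to 0.324% in WT livers. In FPKM, Gstm1 and Gsta3 ranked first and second in both genotypes and Gsta1 last, each apart from its neighbours. Gsta4 and Gstm4 took the next places in Asgr1-/- livers, without overlap with their neighbours, followed by Gstm6, Gstm2, Gstm3, Gstt3 and Gsta2, whose neighbours overlapped. In WT livers the genes from the third to the ninth place (Gstm6, Gsta4, Gstm2, Gstm4, Gsta2, Gstt3 and Gstm3) overlapped with their neighbours throughout, so their order was not settled by 3 livers.

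The WT livers were more spread than the Asgr1-/- livers for some members. WT liver 3 was the lowest WT liver for 8 of 10 members and lay below the WT mean for 9, and WT liver 1 was the highest WT liver for 6. With the WT mean of each gene set to 0, the median log2 CPM of the members was 0.48, 0.49 and 0.61 in Asgr1-/- livers 1, 2 and 3, and 0.21, 0.01 and -0.27 in WT livers 1, 2 and 3. The coefficient of variation of Gsta2 in CPM was 6.32% in Asgr1-/- livers and 43.8% in WT livers, that of Gstm6 was 5.97% in Asgr1-/- and 35.1% in WT livers, and that of Gstt3 was 9.19% in Asgr1-/- and 40.3% in WT livers. Gsta3, as above, had the opposite order. For the called genes the spread was of similar size in both genotypes, with 22.1% in Asgr1-/- livers and 25.3% in WT livers for Gstm3, and with 16.7% in Asgr1-/- livers and 10.7% in WT livers for Gsta1.

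**Figure D4:**
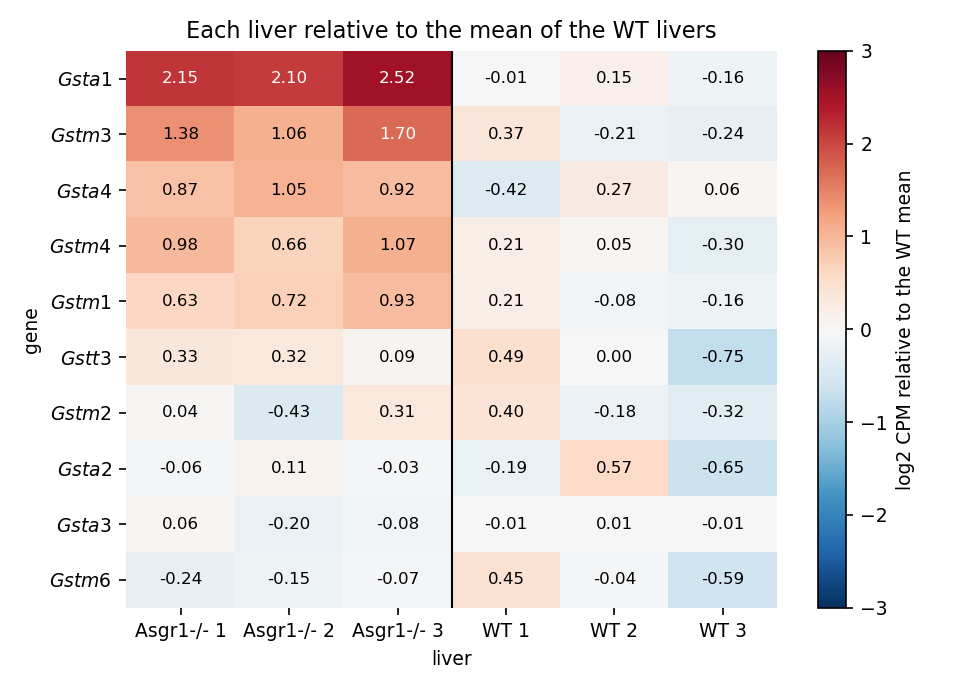
Log2 CPM of each member in each liver, with the mean of the 3 WT livers set to 0, with Asgr1-/- livers left of the line and WT livers right of it (red higher, blue lower). The upper 5 genes are positive in every Asgr1-/- liver and above every WT liver, and the lower 5 overlap between the genotypes, with the lowest values, -0.75 for Gstt3 and -0.65 for Gsta2, in WT liver 3.

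Markers of other liver cells also varied, above all among WT livers. The summed level of 10 Kupffer cell markers was 109.1 to 171.0 FPKM in Asgr1-/- livers, against 45.8, 125.3 and 414.5 FPKM in WT livers 1, 2 and 3, and edgeR called 0 of the 10, with 0 also at an unadjusted p under 0.05 and a median log2 fold change of -0.67. WT liver 3, with the highest Kupffer sum, was the WT liver with the lowest level of most members. As given above, edgeR called the 5 separated members without WT liver 3 or WT liver 1, and 0 members without WT liver 2 or any Asgr1-/- liver. The part of Kupffer cell content in these results was not tested. Of 7 cholangiocyte markers, 5 were tested and 0 called by edgeR, 2 were higher at an unadjusted p under 0.05, the median log2 fold change was 0.93, none was at 0, and the sum was 42.8 to 48.8 FPKM in Asgr1-/- livers and 30.6 to 41.4 FPKM in WT livers. Pericentral hepatocyte markers, of the zone where drug metabolism is richest, summed to 4553.9 to 4847.8 FPKM in Asgr1-/- livers and 3896.3 to 5273.4 FPKM in WT livers, with 0 of 7 called by edgeR, 2 lower at an unadjusted p under 0.05 and a median log2 fold change of -0.04. Hepatocyte markers had a median of -0.12, with 0 of 7 called by edgeR and 0 at an unadjusted p under 0.05, and their sums, given above, did not overlap, with a ratio of means of 0.916. Periportal hepatocyte markers summed to 1546.8 to 1779.5 FPKM in Asgr1-/- livers and 1814.7 to 2002.8 FPKM in WT livers, with 0 of 7 called by edgeR, 1 higher and 2 lower at an unadjusted p under 0.05, 2 called lower by DESeq2 and a median log2 fold change of -0.26. Of 5 lymphocyte markers only Ighm, an immunoglobulin heavy chain gene, was tested, and it was called lower (log2 fold change -2.24, edgeR adjusted p = 0.0215), while the sum of all 5 was 2.23 to 3.24 FPKM in Asgr1-/- livers and 5.84 to 12.5 FPKM in WT livers. The cholangiocyte, hepatocyte, periportal and lymphocyte sums thus did not overlap between the genotypes either. The hepatocyte sum is mostly Alb (mean 23387.5 FPKM in Asgr1-/- and 27063.8 FPKM in WT livers). The lymphocyte sum is mostly Ighm (mean 1.67 FPKM in Asgr1-/- and 7.66 FPKM in WT livers). Of the periportal genes, Pck1 was lower without overlap (mean 612.0 FPKM in Asgr1-/- and 921.7 FPKM in WT livers). Ass1 was higher without overlap (641.5 FPKM in Asgr1-/- and 508.1 FPKM in WT livers). A sum led by 1 gene does not measure the amount of a cell type, and the part of these sums in the results was not tested.

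The genes nearest in pattern to the called members were found by the root mean square difference of centred log2 CPM over the 6 livers, among 10094 genes with a count in every liver. Nearest to Gsta1 were the carboxylesterase gene Ces4a (0.33), the zinc finger gene Zfp992 (0.38) and the cytochrome P450 gene Cyp3a59 (0.48). Nearest to Gstm3 were 2010003K11Rik (0.17), Tkfc (0.22), which encodes a kinase of dihydroxyacetone and glyceraldehyde, and Gm17300 (0.25). This likeness rests mostly on the difference between 2 groups of 3 livers and is given as a description.

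The other GST genes served as a comparison within the superfamily. Of 9 further alpha, mu and theta genes listed, 7 were in the table, 4 were tested and edgeR called 0, with 1 higher at an unadjusted p under 0.05, 0 called by DESeq2 or limma and a median log2 fold change of 0.03. Gstt1, the most abundant of them, had 182.4, 180.6 and 194.6 FPKM in Asgr1-/- livers and 276.3, 199.9 and 182.4 FPKM in WT livers, and its log2 fold change was -0.30 (edgeR adjusted p = 0.401). Gstt2 had 0.29 (adjusted p = 0.288) and Gstm7, of the same cluster as the mu members, 0.08 (adjusted p = 0.821), both from edgeR. Of 12 genes of other classes, 8 were tested and edgeR called 0, with 2 higher at an unadjusted p under 0.05, 1 called higher by DESeq2 (Gstp2), 0 by limma and a median of 0.10. Mgst1 averaged 1725.9 FPKM in Asgr1-/- and 1561.4 FPKM in WT livers, with a log2 fold change of 0.09 (edgeR adjusted p = 0.811). Gstz1 had -0.02 (edgeR adjusted p = 0.94). The pi gene Gstp1 had 1714.1, 1745.4 and 1916.2 FPKM in Asgr1-/- livers 1, 2 and 3, against 419.8, 544.9 and 1231.8 FPKM in WT livers 1, 2 and 3, with a log2 fold change of 1.24 (edgeR adjusted p = 0.133). Unlike most members, Gstp1 was highest among WT livers in WT liver 3. Gstp2 had 10.7, 7.47 and 25.3 FPKM in Asgr1-/- livers 1, 2 and 3, against 1.34, 1.32 and 4.28 FPKM in WT livers 1, 2 and 3, and its log2 fold change of 2.60 (edgeR adjusted p = 0.0805) was above that of each member. The summed level of Gstp1, Gstp2 and Gstp3 had a ratio of means of 2.44, against 1.72 for the mu members.

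The pathway that feeds and follows the members was measured in the same fit. Of 10 genes that make or recycle glutathione, 8 were tested and edgeR called 0, with 3 higher and 1 lower at an unadjusted p under 0.05, 0 called by DESeq2 or limma and a median log2 fold change of 0.07. Cth, the gene of an enzyme that makes cysteine, was the most abundant, with 111.1, 96.4 and 91.3 FPKM in Asgr1-/- livers and 105.3, 127.8 and 115.7 FPKM in WT livers, and a log2 fold change of -0.28 (edgeR adjusted p = 0.306). Cbs, which acts one step before it, had 0.01 (edgeR adjusted p = 0.975). Gclc, the catalytic subunit of the rate-limiting step of glutathione synthesis, had 59.8, 61.2 and 62.8 FPKM in Asgr1-/- livers and 46.5, 53.1 and 49.3 FPKM in WT livers. These did not overlap, but the log2 fold change was 0.25 (edgeR adjusted p = 0.289). Gclm, the other subunit of that enzyme, had -0.19 (edgeR adjusted p = 0.439). In CPM, 3 of the 8 genes tested were higher without overlap, Gclc among them, and 3 were lower, Gclm and Cth among them. Over all genes tested the share was 10.9% in each direction. Of 5 glutathione peroxidases, 4 were tested and edgeR, DESeq2 and limma called 0, with 0 at an unadjusted p under 0.05 in edgeR and a median of -0.06. The most abundant, Gpx1, had -0.18 (edgeR adjusted p = 0.621). Of 19 genes that export conjugates or turn them into mercapturates, 11 were tested and edgeR called 0, with 1 higher and 1 lower at an unadjusted p under 0.05, 1 called lower by DESeq2 (Nat8f1), 0 by limma and a median of 0.15. The exporter gene Abcc2 had a log2 fold change of -0.28 (edgeR adjusted p = 0.399).

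Regulators of GST genes and their other targets were counted likewise. All 13 regulators listed were tested and edgeR, DESeq2 and limma called 0, with 1 lower at an unadjusted p under 0.05 in edgeR and a median of -0.03. The log2 fold change was 0.02 for Nfe2l2, the gene of NRF2, 0.05 for Nr1i2, the gene of PXR, and 0.00 for Nr1i3, the gene of CAR. These are mRNA levels and say nothing of the activity of the proteins. Of 8 NRF2 targets outside the GST family, 7 were tested and edgeR, DESeq2 and limma called 0. In edgeR, 3 were higher at an unadjusted p under 0.05, and the median was 0.28. In CPM, 4 were higher without overlap and 1 lower, beside 10.9% of all genes in each direction. The most abundant was Ephx1, with a log2 fold change of 0.30 (edgeR adjusted p = 0.308). Gclc and Gclm, given above, came next and differed in direction. Of 8 targets of CAR and PXR, 6 were tested and edgeR called 2 higher, beside 14 of all genes (0.138%). DESeq2 also called 2 higher, beside 0.915% of all genes, and limma on log2(FPKM + 0.1) called 1, beside 0.0492%. In edgeR, 2 were higher at an unadjusted p under 0.05, and the median was 0.32. Cyp3a11, a cytochrome P450 that oxidises many drugs, had 560.3, 593.7 and 471.1 FPKM in Asgr1-/- livers, against 34.5, 42.9 and 31.3 FPKM in WT livers, with a log2 fold change of 3.85 (edgeR adjusted p = 9.3e-06). Ces2a, a carboxylesterase, had 155.1, 160.2 and 157.6 FPKM in Asgr1-/- livers, against 94.3, 76.8 and 62.6 FPKM in WT livers, with 0.96 (edgeR adjusted p = 0.0448). The other 4 tested were not called, and among them Cyp2c29 had 0.27 (edgeR adjusted p = 0.544) and Por, the electron donor of the P450 enzymes, had -0.27 (edgeR adjusted p = 0.504). Cyp2b10 and Cyp2c55 were below the minimum for testing. Cyp2b10 averaged 0.673 FPKM in Asgr1-/- and 1.03 FPKM in WT livers, with overlap. Cyp2c55 averaged 0.78 FPKM in Asgr1-/- and 0.39 FPKM in WT livers, without overlap.

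Promoters of 9 of the 10 members were found in the RefSeq promoter table for GRCm38.p6, Gsta4 being the one not matched. The 250 bases before the start are shown for Gsta1 (chr9:78230419-78230668, plus strand) and Gsta2 (chr9:78347146-78347395, minus strand), since their coding sequences are nearly the same and their values were not. The RefSeq start of Gsta2 lies inside the longer gene span of the files. Both were aligned, with capitals where the pair differ or a base has no partner.
Gsta1: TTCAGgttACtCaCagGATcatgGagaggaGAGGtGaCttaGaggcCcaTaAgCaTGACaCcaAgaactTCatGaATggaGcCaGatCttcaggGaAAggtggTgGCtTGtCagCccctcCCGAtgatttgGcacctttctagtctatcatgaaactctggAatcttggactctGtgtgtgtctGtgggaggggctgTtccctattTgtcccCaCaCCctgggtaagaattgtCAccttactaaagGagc
Gsta2: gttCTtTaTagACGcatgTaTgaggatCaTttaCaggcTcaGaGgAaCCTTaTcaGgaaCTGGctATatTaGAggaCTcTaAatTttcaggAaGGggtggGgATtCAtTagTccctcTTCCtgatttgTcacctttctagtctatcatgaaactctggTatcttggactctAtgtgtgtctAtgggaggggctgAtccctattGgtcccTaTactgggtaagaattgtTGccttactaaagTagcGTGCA
The pair were identical at 184 of 239 aligned bases, or 77.0%, against 97.9% in the coding sequence.

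Letters of 3 known motifs were searched on both strands of the 250 bases. The core of the antioxidant response element, TGACNNNGC, occurred in 1 matched member, Gsta3, and in 10.2% of all 32851 promoters of that length. It is shown in capitals in 60 bases of the Gsta3 promoter (chr1:21240439-21240498, plus strand), where its first base lies at -121.
Gsta3: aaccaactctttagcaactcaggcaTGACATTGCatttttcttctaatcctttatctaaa
Gsta3 is among the members that overlapped between the genotypes. The core of the xenobiotic response element, GCGTG, occurred in Gsta2 and Gstm1 and in 28.2% of all promoters. The direct repeat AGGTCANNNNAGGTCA, a site of the kind that CAR binds, occurred in 0 of the 9 matched members and in 0.0152% of all promoters. A match of letters is not a site in use, and these windows leave out distal elements.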

How the data were processed

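Liver RNA of 6 male mice, 3 Asgr1-/- and 3 WT, was sequenced with 1 library per mouse. The authors deposited 1 table of 55401 genes with raw counts, FPKM and exonic sizes. The submitters' notes name GRCm38 and DESeq2 1.6.3. The sources used here do not give the aligner, the counting tool, strand or read length. FPKM recomputed from the counts and sizes lay within 0.005 of the deposited FPKM. The members and all gene lists were chosen with earlier results of these data known.

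Counts were fitted with edgeR 4.0.16 (quasi-likelihood, TMM, two-sided, Benjamini-Hochberg adjustment) for the 10167 genes averaging 1 FPKM or more across livers, 98.9% of all counts. Calls needed a fold change above 1.5 and an adjusted p under 0.05. The steps were tested on simulated data. With 3 mice per genotype, p values set the difference between genotypes against the spread between mice. That spread is estimated for each gene with the help of all genes fitted. Alternatives were DESeq2 1.42.0, other size factors, other filters, limma 3.58.1 on log2(FPKM + 0.1) and log2(FPKM + 1), a replicate block and leaving out each liver. Whether the replicate numbers pair the livers is not stated. Deviations from the group means correlated at -0.168, 0.0241 and -0.034 between livers of the same number, which cannot settle it. Within each genotype, no library repeated another.

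Every member was named, and from other lists genes past the test and up to 3 of the highest mean FPKM. For each called member, the 3 nearest genes in pattern were named. Abcc2, Nfe2l2, Nr1i2, Cyp2b10, Cyp2c55, Gstp2, Gm3776, Gm8834, Gm10639, Gstp3 and Gstm2-ps1 fall outside this rule and were chosen after their values were seen. Sequences came from GENCODE M21 transcripts and the RefSeq promoter table, read with Biopython 1.88. Other versions were matplotlib 3.10.9, pandas 2.3.3, numpy 2.4.6, Python 3.11.15 and R 4.3.3.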

Additional observations from a re-analysis of the deposited data

How the results depend on the processing

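Gsta1, Gsta4, Gstm1, Gstm3 and Gstm4 were higher in Asgr1-/- livers in all 14 alternatives, and the 5 overlapping members were called in none. Called genes numbered 30 over the whole table, and 248 with DESeq2, 465 with no expression filter, 70 at a mean FPKM of at least 0.1, 11 and 16 with limma on log2(FPKM + 0.1) and log2(FPKM + 1), and 3 to 288 when each liver was left out. Genes called higher numbered 14, and in the same order 93, 193, 34, 5, 8 and 1 to 160. Members called numbered 2, and in the same order 5, 5, 5, 1, 1 and 0 to 5 (a count added after seeing the data). With a replicate block, edgeR called 7 genes and 0 members higher. The log2 fold changes were then 2.25 for Gsta1 (edgeR adjusted p = 0.0685) and 1.41 for Gstm3 (edgeR adjusted p = 0.0528). Differences near 0 changed sign when a liver was left out, with log2 ranges of -0.23 to 0.41 for Gsta2, -0.13 to 0.00 for Gsta3, -0.16 to 0.25 for Gstm2, -0.38 to 0.14 for Gstm6 and -0.02 to 0.57 for Gstt3. The ratio of the summed alpha level was 1.06 in FPKM and 0.971 in CPM, where long genes weigh more, and leaving out each liver, added after seeing the data, gave 1.01 to 1.09 for alpha and 1.62 to 1.88 for mu. The cause of the other shifts was not tested. Gsta1 had 11 to 14 counts per WT liver, which limits the precision of its level.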

Other observations

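Gene models that resemble the members were measured too. The pseudogene Gstm2-ps1, which shares windows with Gstm1 and Gstm3, had 5.86, 4.91 and 6.53 FPKM in Asgr1-/- livers 1, 2 and 3, against 5.59, 4.24 and 2.65 FPKM in WT livers 1, 2 and 3, with a log2 fold change of 0.41 (edgeR adjusted p = 0.547). Gm10639, which shares windows with Gsta1 and Gsta2, had 2, 0 and 0 counts in Asgr1-/- livers and 1, 0 and 0 counts in WT livers. Among enzymes that act on the conjugates, Nat8f1, one of a family of N-acetyltransferase genes, had 75.0, 93.3 and 94.9 FPKM in Asgr1-/- livers, against 122.2, 154.6 and 148.7 FPKM in WT livers, with a log2 fold change of -0.75 (edgeR adjusted p = 0.0606). It was the only gene of its list that was lower without overlap.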
